A study of Mus musculus with 4 samples.

Results

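The genes described here are 8 that serve astrocytes in clearing transmitter, passing small molecules between cells and buffering potassium and water: Slc1a2, Slc1a3, Slc6a11, Glul, Gja1, Gjb6, Kcnj10 and Aqp4. They were chosen by symbol, and each matched 1 row of the 32285 genes in the count matrices. Nuclei of the basolateral amygdala (BLA) of C57BL/6J mice were profiled by single-nucleus RNA sequencing (10x 3' v3 chemistry), with 2 libraries of DISC1-N mice (labelled DISC-N) and 2 of wild-type (WT) mice, numbered replicate 1 and replicate 2. Mice of both genotypes were killed 6 h after a tamoxifen injection, and BLA tissue of both hemispheres from 5 mice was pooled for each group. What DISC1-N alters, its promoter, and the age and sex of the mice were not given in the sources used here. The 2 replicates of a genotype may share mice, so p-values may measure technical spread only.

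Astrocytes take up the glutamate and GABA that neurons release. Glutamate enters them through GLT-1, encoded by Slc1a2, and GLAST, encoded by Slc1a3, and GABA through GAT-3, encoded by Slc6a11. Glutamine synthetase, encoded by Glul, then turns glutamate into glutamine, which neurons use again as a precursor of both transmitters. Gap junctions of connexin 43 (Gja1) and connexin 30 (Gjb6) join astrocytes into networks, the inward rectifier Kir4.1 (Kcnj10) carries the potassium that firing neurons release, and aquaporin 4 (Aqp4) passes water at the endfeet that wrap blood vessels.

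The libraries held 27313 barcodes with medians of 3279 to 4780.5 unique molecular identifiers (UMIs, 1 per captured RNA molecule) and totals of 37840301 to 48439711 UMIs. Pairs of libraries shared 5 to 21 barcodes. After filtering and doublet removal 25332 nuclei were kept, of which 3212 were called astrocytes by 15 marker genes that included no member (393 and 1107 in DISC1-N replicates 1 and 2, and 605 and 1107 in WT replicates 1 and 2). All 15 markers were detected in the astrocytes of every library, and their summed level was 10859 and 16334 CPM in DISC1-N and 10718 and 14989 CPM in WT astrocytes, where CPM are UMIs of a gene or list per 1000000 UMIs of the class in that library. The other classes tested were excitatory neurons (6587 nuclei), inhibitory neurons (4675), oligodendrocytes (2361), oligodendrocyte precursors (1528) and microglia (1318), and 5352 nuclei had no class. Disc1, the gene the genotype is named for, stood at 29.6 and 47.0 CPM in DISC1-N astrocytes and 23.3 and 36.7 CPM in WT astrocytes; this 3' assay may not read the altered part, so it does not check the genotype labels.

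Both replicate 1 files were made with a different Cell Ranger version from both replicate 2 files, and 6 of the 8 members (all but Glul and Aqp4) were higher in both replicate 2 astrocyte libraries than in both replicate 1 libraries, against 24.7% of 12013 genes. Gja1 was 1.61 times as high in replicate 2 as in replicate 1 of DISC1-N and 1.83 times in WT, and the sum of the 15 astrocyte markers 1.5 and 1.40 times in DISC1-N and WT. Replicate 1 astrocytes also held more RNA of excitatory neuron markers, which summed to 239 and 90.5 CPM in DISC1-N replicates 1 and 2 and to 307 and 113 CPM in WT replicates 1 and 2. Fits that take the replicate number as a block stand beside the others for this reason.

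Of the 8 promoters, 7 were found in the RefSeq table of build GRCm38.p6, which holds the 300 bases from 250 before to 50 after a start listed for each gene. The 4 printed here belong to the connexins, whose log2 difference of astrocytes over the mean of the log2 levels of the other 5 classes was the largest among the members (5.98 ± 0.29 for Gja1 and 6.15 ± 0.32 for Gjb6, SE), and to Glul and Kcnj10, for which it was the smallest (3.01 ± 0.17 and 1.92 ± 0.36). Capitals mark TTGGC, the core that nuclear factor I proteins bind, and ACAAAG, a core of SOX protein sites, on either strand (GCCAA and CTTTGT on the other); the second SOX core searched, ACAATG or CATTGT, was in none of the 7, and no matches overlapped. The sequences read 5′ to 3′ on the gene's strand, from chr10:56377050-56377349 (+), chr14:57133562-57133861 (−), chr1:153899679-153899978 (+) and chr1:172340960-172341259 (+), in this order.
Gja1: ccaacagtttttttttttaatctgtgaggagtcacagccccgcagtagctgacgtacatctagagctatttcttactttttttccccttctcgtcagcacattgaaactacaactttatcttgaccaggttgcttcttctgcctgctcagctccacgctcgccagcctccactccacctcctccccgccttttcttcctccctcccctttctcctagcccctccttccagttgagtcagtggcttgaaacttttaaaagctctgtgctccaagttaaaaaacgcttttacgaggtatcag
Gjb6: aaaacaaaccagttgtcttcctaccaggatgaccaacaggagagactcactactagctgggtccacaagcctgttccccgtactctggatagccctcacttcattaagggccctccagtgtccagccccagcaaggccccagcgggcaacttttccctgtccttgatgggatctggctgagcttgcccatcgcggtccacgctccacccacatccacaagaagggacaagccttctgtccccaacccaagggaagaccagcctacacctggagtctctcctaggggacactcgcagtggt
Glul: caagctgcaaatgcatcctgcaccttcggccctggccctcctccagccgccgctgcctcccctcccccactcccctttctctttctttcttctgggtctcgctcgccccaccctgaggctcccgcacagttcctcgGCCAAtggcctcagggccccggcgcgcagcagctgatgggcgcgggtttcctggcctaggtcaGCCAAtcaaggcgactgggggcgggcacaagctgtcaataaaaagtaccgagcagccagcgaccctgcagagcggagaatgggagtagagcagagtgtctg
Kcnj10: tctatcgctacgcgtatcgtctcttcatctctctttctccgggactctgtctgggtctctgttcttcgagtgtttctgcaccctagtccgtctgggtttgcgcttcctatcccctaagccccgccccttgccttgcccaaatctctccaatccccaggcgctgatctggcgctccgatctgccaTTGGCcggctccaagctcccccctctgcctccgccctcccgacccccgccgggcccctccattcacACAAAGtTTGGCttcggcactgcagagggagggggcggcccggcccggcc
The Kcnj10 window held 2 TTGGC matches and 1 ACAAAG match, the Glul window 2 TTGGC matches on the other strand, and neither connexin window held any of the 3 motifs. TTGGC was in 46.7% of the 32851 promoters of that length, ACAAAG in 18.7% and ACAATG in 12.6%, and a match only describes these letters. The Slc1a2 window (chr2:102706188-102706487, + strand) held 1 TTGGC match, but it lay inside the gene model given below and not at its start. GC content was 64.3% at Glul and 63.7% at Kcnj10, against 47.7% at Gja1 and 57.3% at Gjb6.

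All 8 members were higher in astrocytes than the mean of the log2 levels of the other 5 classes (edgeR with the library as a block, Benjamini-Hochberg adjusted p from 9.0e-16 for Slc1a2 to 0.000112 for Kcnj10), as were 25.6% of the 13144 genes tested, with 26.1% lower. A gene could pass the filter on low counts through astrocytes alone, so this count describes the members. In plain CPM Kcnj10 was not above the other classes in every library: astrocytes held 11.6 and 26.8 CPM in DISC1-N and 17.9 and 29.5 CPM in WT, against plain means over the other 5 classes of 14.1 and 15.4 CPM in DISC1-N and 23.9 and 18.6 CPM in WT. All but Kcnj10 were also higher in astrocytes than in each other class. The share of genes higher in astrocytes was 33.6% against excitatory neurons, 30.7% against inhibitory neurons, 20.8% against oligodendrocytes, 17.9% against oligodendrocyte precursors and 24% against microglia. Beside each level outside astrocytes stands the astrocyte marker sum of that class, which was 2.54% to 5.92% of the astrocyte sum in excitatory neurons, 0.980% to 4.89% in inhibitory neurons, 0.985% to 3.35% in oligodendrocytes and 1.34% to 2.72% in microglia over the 4 libraries. Oligodendrocyte precursors stood at 23.2% to 26.5%, mostly through the marker Gpc5, at 2960 CPM there and 7756 CPM in astrocytes. Gpc5 thus carried most of the astrocyte sum, and single markers had other shares. The part of free RNA in levels outside astrocytes was not tested.

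**Figure D1:**
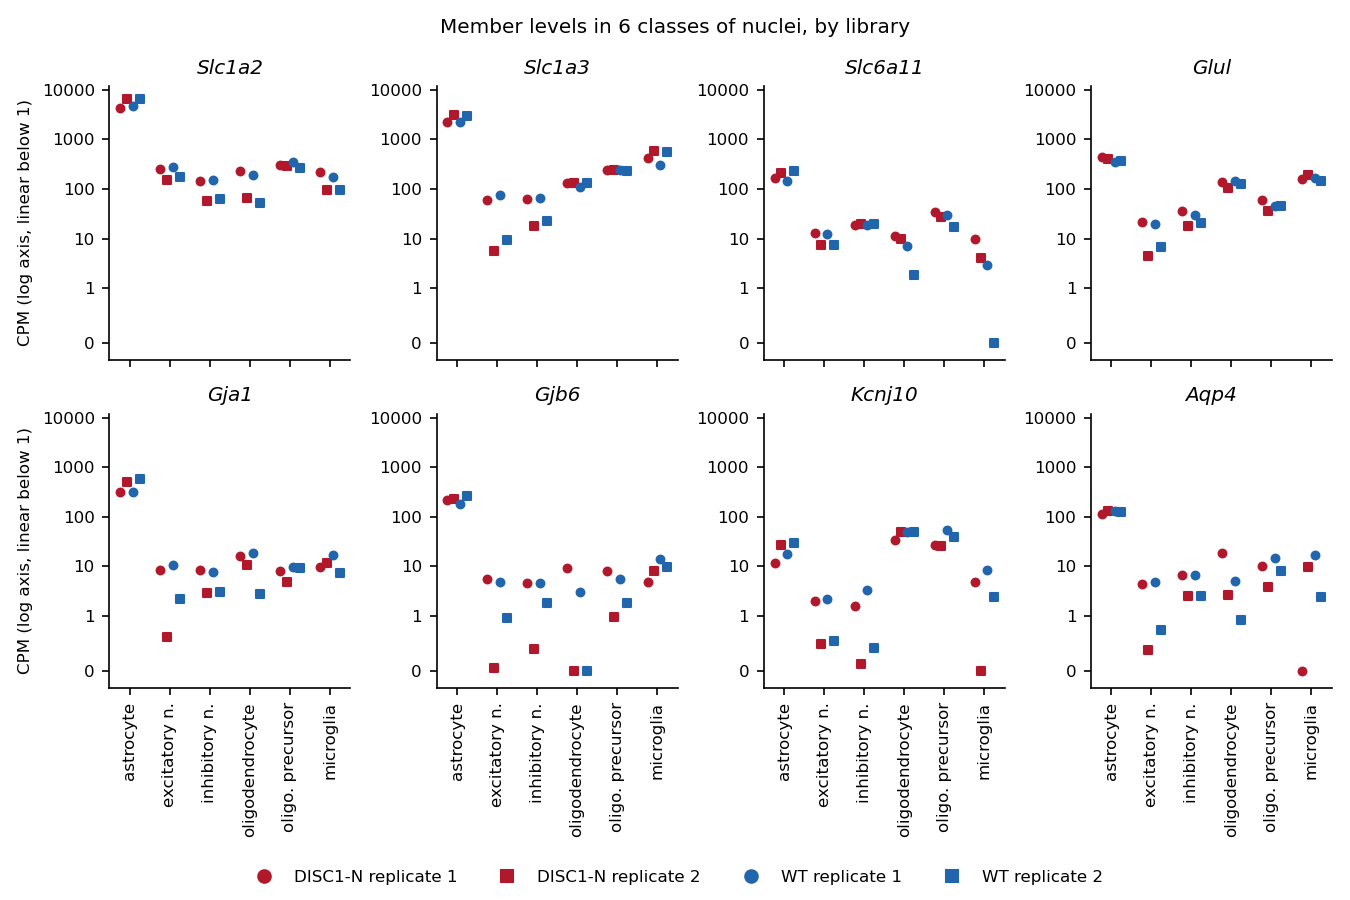
Level of each member (y axis, CPM on a log axis that is linear below 1) in 6 classes of nuclei (x axis), with 1 point per library, DISC1-N in red and WT in blue, circles for replicate 1 and squares for replicate 2. All members but Kcnj10 peak in astrocytes, and Glul and Slc1a3 keep levels above 100 CPM in microglia and oligodendrocytes.

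Slc1a2 (mm10 chr2:102658659-102790784, + strand) had 4334 and 6626 CPM in DISC1-N astrocytes and 4766 and 6474 CPM in WT astrocytes, a mean of 5550 ± 1170 (SD, n = 4 libraries). Its replicate 2 libraries were both above its replicate 1 libraries, and the genotypes overlapped. Thinned to 1000 UMIs a nucleus, 97.7% to 99.4% of astrocyte nuclei of a library held a Slc1a2 UMI. Outside astrocytes its order was oligodendrocyte precursors (305 ± 37.0 CPM, SD, n = 4), excitatory neurons (214 ± 60.9), microglia (147 ± 63.5), oligodendrocytes (135 ± 88.8) and inhibitory neurons (106 ± 53.5). Precursors and excitatory neurons did not differ beyond their spread (adjusted p = 0.403, edgeR), excitatory neurons were higher than microglia (adjusted p = 0.00298), and the 2 pairs that follow in this order did not pass the test (adjusted p = 0.803 and 0.570).

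The excitatory neuron level of Slc1a2 was 2.28% to 5.90% of the astrocyte level of the same library, beside 2.54% to 5.92% for the marker sum. That sum was carried mostly by Gpc5, and single markers had lower or higher shares. Etnppl averaged 2.94 CPM in excitatory neurons and 256 CPM in astrocytes, and Bmpr1b 44.4 and 448 CPM. The part of free RNA in the Slc1a2 level was not tested. In excitatory nuclei that held no UMI of any of the 15 astrocyte markers (14.2% to 25.1% of a library), Slc1a2 had 143 and 144 CPM in DISC1-N and 177 and 158 CPM in WT, while Gja1 had 2.72 and 0.755 CPM in DISC1-N and 5.16 and 2.13 CPM in WT, from 2 to 11 UMIs. Slc1a2 thus stayed above 100 CPM in each library there, at median depths of 6373 to 7658 UMIs. These nuclei were chosen after the data were seen.

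Slc1a3 (chr15:8634124-8710764, − strand, counts uncertain because the gene model Gm37310 overlaps it on the same strand) had 2219 and 3172 CPM in DISC1-N astrocytes and 2275 and 2972 CPM in WT astrocytes. After thinning it was found in 87.3% to 93.8% of astrocyte nuclei. Microglia held 423 and 582 CPM in DISC1-N and 299 and 557 CPM in WT, which is 13.1% to 19.1% of the astrocyte level against a marker sum of 1.34% to 2.72%. A Slc1a3 UMI was seen in 26.8% to 42.2% of thinned microglial nuclei, and in 0.546% to 4.48% of thinned excitatory nuclei. Oligodendrocyte precursors (239 ± 5.67 CPM, SD, n = 4, range 231 to 243) and oligodendrocytes (128 ± 10.6 CPM, 112 to 134) followed. Their library ranges did not overlap with each other or with microglia. Neither microglia and precursors (adjusted p = 0.292, edgeR) nor precursors and oligodendrocytes (adjusted p = 0.231) passed the test, whose spread is estimated over the 6 classes together. Inhibitory neurons (41.8 ± 24.9 CPM) were lower than oligodendrocytes (adjusted p = 0.00996) and next to excitatory neurons (38.0 ± 35.7 CPM, adjusted p = 0.962).

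Slc6a11 (chr6:114131241-114249952, + strand) had 165 and 213 CPM in DISC1-N astrocytes and 145 and 235 CPM in WT astrocytes, and 13.6% to 21.4% of thinned astrocyte nuclei held a UMI. Oligodendrocyte precursors (27.5 ± 7.50 CPM, SD, n = 4) and inhibitory neurons (19.1 ± 0.480 CPM) did not differ beyond their spread (adjusted p = 0.319, edgeR). Inhibitory neurons gave nearly one value in all libraries, 18.4 and 19.3 CPM in DISC1-N and 19.1 and 19.5 CPM in WT. Their astrocyte marker sum was 531 and 160 CPM in DISC1-N and 438 and 220 CPM in WT, and the part of free RNA was not tested. Inhibitory neurons were higher than excitatory neurons (9.99 ± 2.95 CPM, adjusted p = 0.00492), which did not differ beyond their spread from oligodendrocytes (7.44 ± 4.03 CPM, adjusted p = 0.109), nor these from microglia (4.18 ± 4.13 CPM, adjusted p = 0.239).

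Glul (chr1:153899944-153909723, + strand) had 436 and 398 CPM in DISC1-N astrocytes and 355 and 361 CPM in WT astrocytes. Other glia held it too: microglia had 157 and 193 CPM in DISC1-N and 165 and 145 CPM in WT, and oligodendrocytes 141 and 106 CPM in DISC1-N and 144 and 125 CPM in WT. These were 36.1% to 48.4% of the astrocyte level in microglia and 26.6% to 40.6% in oligodendrocytes, against marker sums of at most 2.72% and 3.35%. Microglia and oligodendrocytes did not pass the test (adjusted p = 0.901, edgeR), and oligodendrocytes were higher than precursors (46.3 ± 10.2 CPM, SD, n = 4, adjusted p = 0.000380). Precursors and inhibitory neurons (26.2 ± 8.70 CPM) did not pass the test (adjusted p = 0.0540), and excitatory neurons were the lowest class (13 ± 8.64 CPM, adjusted p = 0.0110 against inhibitory neurons).

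Among the 6 classes tested, the connexins and Aqp4 were low in all but astrocytes, and "elsewhere" here means the other 5 tested classes. Gja1 (chr10:56377330-56402513, + strand) had 317 and 510 CPM in DISC1-N astrocytes and 326 and 595 CPM in WT astrocytes, and class means of 5.49 to 12.1 CPM elsewhere. Gjb6 (chr14:57123303-57133611, − strand) had 223 and 233 CPM in DISC1-N astrocytes and 180 and 267 CPM in WT astrocytes, and class means of 2.83 to 9.26 CPM elsewhere. Aqp4 (chr18:15389496-15410982, − strand) had 116 and 133 CPM in DISC1-N astrocytes and 132 and 127 CPM in WT astrocytes, and class means of 2.60 to 9.38 CPM elsewhere. For each of these 3 genes 0 of 10 pairs of the other classes were called. The adjusted p (edgeR) was at least 0.226 for Gja1, 0.266 for Gjb6 and 0.0558 for Aqp4. The unadjusted p was under 0.05 in 0, 0 and 1 pairs. These genes could pass the filter on low counts through astrocytes alone. In oligodendrocytes, precursors and microglia they had 8 to 42 UMIs a class over the 4 libraries. A pair of such low classes could hardly be called, so these counts do not show equal levels. Of all genes, 33.8% were called between excitatory and inhibitory neurons. Excitatory neurons differed in 64.6% from oligodendrocytes, in 56.8% from precursors and in 65.9% from microglia, and inhibitory neurons in 60.1%, 47.1% and 62.4%. Oligodendrocytes differed in 39.5% from precursors and in 38.6% from microglia, and precursors in 46.7% from microglia. The neuronal levels of the connexins and Aqp4 moved with the replicate number: Gja1 in excitatory neurons was at 8.55 and 0.625 CPM in DISC1-N replicates 1 and 2 and at 10.6 and 2.20 CPM in WT replicates 1 and 2, beside astrocyte marker sums of 643 and 415 CPM in DISC1-N and 634 and 400 CPM in WT. The part of free RNA in these low levels was not tested.

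Kcnj10 (chr1:172341210-172374085, + strand) was the exception among the members. Astrocytes held only 11.6 and 26.8 CPM in DISC1-N and 17.9 and 29.5 CPM in WT, from 11 to 66 UMIs a library. Oligodendrocytes held 34.9 and 50 CPM in DISC1-N and 50.5 and 50.5 CPM in WT, so that in each library the oligodendrocyte level was above the astrocyte level, at 171% of it or more. Oligodendrocyte precursors held 26.9 and 26.5 CPM in DISC1-N and 54.7 and 39.2 CPM in WT. The log2 difference of astrocytes over oligodendrocytes was -1.0 ± 0.38 (SE, adjusted p = 0.0365, edgeR), a call made for 21.2% of genes in this direction.

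That call was not firm: it was lost without WT replicate 1 (-0.86, adjusted p = 0.0987), without DISC1-N replicate 1 (-0.88, adjusted p = 0.116), without WT replicate 2 (-1.12, adjusted p = 0.0746) and with DESeq2 size factors (-0.94, adjusted p = 0.0534), and the direction stayed negative in each. Thinned to 1000 UMIs it was -1.17 (adjusted p = 0.000816). Astrocytes over precursors gave -0.59 ± 0.40 (adjusted p = 0.288), and precursors and oligodendrocytes did not differ beyond their spread (adjusted p = 0.434). Astrocytes were higher than microglia (4.01 ± 3.71 CPM, SD, n = 4, log2 difference 3.13 ± 0.87, adjusted p = 0.00489), and inhibitory (1.39 ± 1.49 CPM) and excitatory neurons (1.31 ± 0.910 CPM) were lowest and did not differ beyond their spread (adjusted p = 0.658). Kcnj10 was scarce in single nuclei too: a thinned astrocyte nucleus held a UMI in 0.771% (95% Wilson interval 0.263 to 2.24) of DISC1-N replicate 1 and 2.03% (1.34 to 3.05) of DISC1-N replicate 2, and in 1.84% (1.03 to 3.27) of WT replicate 1 and 2.97% (2.11 to 4.16) of WT replicate 2, against 3.74% to 5.49% of oligodendrocyte and 0.0607% to 0.322% of excitatory nuclei. Intervals cover counting error only.

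The classes too small for a test gave values with wide counting error. Endothelial nuclei (111 in all) held a mean of 22.8% of the astrocyte level of Gja1 and 42.8% of that of Glul, with an SD over libraries of 14.4 and 33.0, and their astrocyte marker sums were 1202 to 1307 CPM in DISC1-N and 1477 to 2949 CPM in WT. Differentiating oligodendrocytes (73 nuclei) held Kcnj10 at 0 and 52.3 CPM in DISC1-N and at 39.9 and 46.5 CPM in WT, from 0 to 5 UMIs a library.

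Members were also seen together in single nuclei. At 1000 UMIs a nucleus, the median astrocyte held UMIs of 3 members in each of the 4 libraries, and the mean was 3.01 and 3.18 in DISC1-N and 2.81 and 3.28 in WT. Both glutamate transporters, Slc1a2 and Slc1a3, were found in 88.9% and 93.3% of astrocyte nuclei in DISC1-N and in 85.3% and 93.0% in WT. A connexin was found in 40.9% and 48.9% of them in DISC1-N and in 36.7% and 56.5% in WT, and both connexins in 5.66% and 8.03% in DISC1-N and in 4.19% and 11.8% in WT. Both transporters were found in 0.0627% to 1.95% of thinned excitatory nuclei over the 4 libraries, and the median excitatory nucleus held no member. Before thinning, a UMI was found in 99% to 99.9% of astrocyte nuclei for Slc1a2, 96.9% to 98.5% for Slc1a3, 25.8% to 36.9% for Slc6a11 and 49.1% to 62.1% for Glul. The unthinned share was 41.2% to 64.3% for Gja1, 29.9% to 42.0% for Gjb6, 2.80% to 5.69% for Kcnj10 and 21.5% to 23.0% for Aqp4. Thinning left out 4 and 23 astrocyte nuclei of DISC1-N and 8 and 28 of WT for lack of depth.

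**Figure D2:**
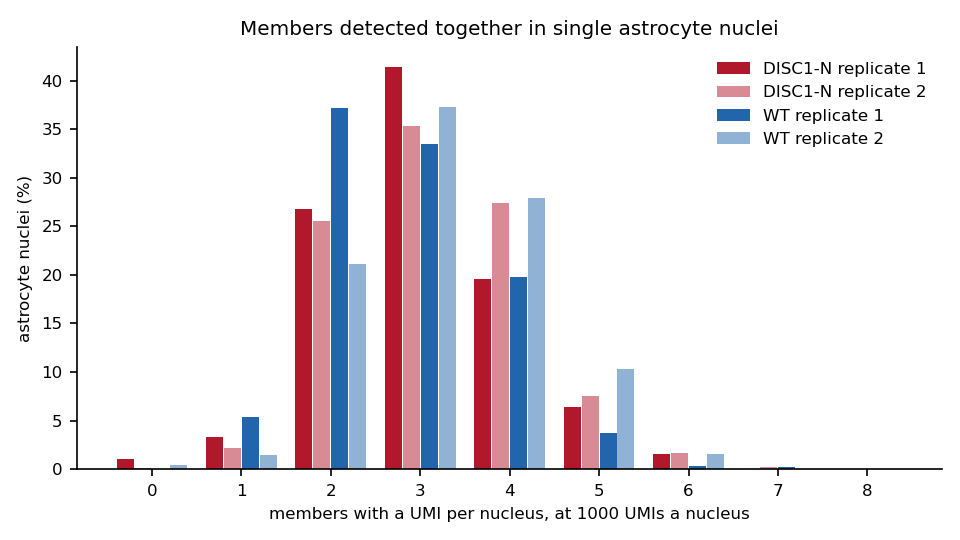
Share of astrocyte nuclei (y axis, percent) by the number of the 8 members with at least 1 UMI (x axis), after thinning each nucleus to 1000 UMIs, with 1 bar per library (DISC1-N in red, WT in blue, replicate 2 in the paler shade). The median is 3 members in each library, and WT replicate 1 has the largest share of nuclei with 2.

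Astrocytes were divided by 2 genes to see whether the members varied among them: Gfap, an intermediate filament protein of astrocytes, and Agt, angiotensinogen, which was picked after the data were seen. A Gfap UMI was found in 8.40% and 4.88% of astrocyte nuclei of DISC1-N and in 6.94% and 3.61% of WT. Slc1a2 was higher in nuclei with a Gfap UMI in 4 of 4 libraries, by 1.03 to 1.21 times, and Gja1 was lower in 4 of 4, at 0.750 to 0.970 of the level without; nuclei with a Gfap UMI were deeper, at median UMIs of 2847 and 2137.5 in DISC1-N and 2240 and 1962 in WT, against 1952 and 1917 in DISC1-N and 1916 and 1835 in WT. An Agt UMI was found in 11.2% and 11.2% of astrocyte nuclei of DISC1-N and in 9.26% and 14.5% of WT. Gja1 was higher in nuclei with an Agt UMI in 4 of 4 libraries (551 and 611 CPM in DISC1-N and 489 and 796 CPM in WT, against 285 and 498 CPM in DISC1-N and 308 and 563 CPM in WT without), as were Slc6a11, by 1.17 to 1.91 times, and Slc1a3, by 1.02 to 1.05 times. Kcnj10 was lower in 4 of 4, at 0.415 to 0.961 of the level without, from 1 to 9 UMIs in the nuclei with Agt. The members not named for a split were higher in its nuclei with a UMI in 2 or 3 of 4 libraries. Nuclei with a Gfap UMI numbered only 33 to 54 a library. The share of all genes on one side in 4 of 4 libraries was not computed. Nuclei of a library are no replicates and no test was made of these splits.

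Whether DISC1-N changed the members in astrocytes is the comparison that the design implies, and no member passed the test. Glul had the lowest unadjusted p of the members under both fits, with 436 and 398 CPM in DISC1-N astrocytes and 355 and 361 CPM in WT astrocytes. Both DISC1-N libraries were above both WT libraries, and it was the 1 member of 8 whose genotypes did not overlap, against 20.2% of the 12013 genes tested. Its log2 fold change was 0.24 ± 0.33 (SE, adjusted p = 1.00) without a block and 0.24 ± 0.11 (unadjusted p = 0.0531, adjusted p = 0.907) with the number blocked, both by edgeR (0% of genes were called in either fit). Within replicate 1 the ratio of DISC1-N to WT was 1.23 (95% counting interval 1.07 to 1.41), and within replicate 2 it was 1.10 (1.00 to 1.22).

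**Figure D3:**
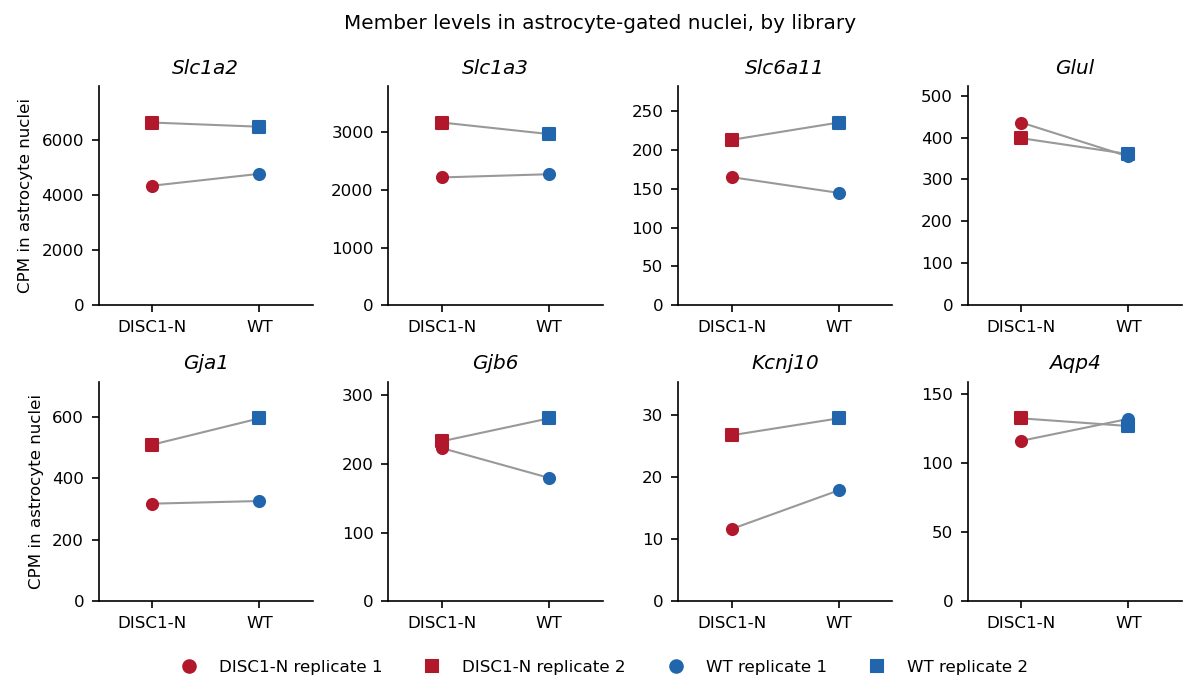
Level of each member in astrocyte nuclei (y axis, CPM), with 1 point per library for DISC1-N (left, red) and WT (right, blue), circles for replicate 1, squares for replicate 2 and grey lines joining libraries of the same number. Glul is higher in both DISC1-N libraries (436 and 398 CPM) than in both WT libraries (355 and 361 CPM), and the other 7 members overlap.

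Kcnj10 was lower in DISC1-N astrocytes within both replicate numbers, from few UMIs: 11 in DISC1-N against 23 in WT in replicate 1 (ratio 0.650, 0.286 to 1.39) and 61 against 66 in replicate 2 (0.907, 0.630 to 1.31). Gja1 was lower within both as well, with ratios of 0.973 (0.836 to 1.13) and 0.856 (0.790 to 0.926). Together with Glul these were the 3 members of 8 on one side of WT in both numbers, against 51.9% of genes. With the block, the log2 fold change was -0.25 ± 0.25 for Kcnj10 (adjusted p = 0.923) and -0.11 ± 0.11 for Gja1 (adjusted p = 0.920).

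The other 5 members took opposite sides of WT in the 2 replicate numbers. Gjb6 had a ratio of 1.24 (1.03 to 1.5) in replicate 1 and 0.875 (0.777 to 0.985) in replicate 2. Slc6a11 had 1.14 and 0.905, Slc1a2 0.909 and 1.02, Slc1a3 0.975 and 1.07, and Aqp4 0.880 and 1.04. Blocked log2 fold changes of these 5 lay between -0.03 (Slc1a2) and 0.06 (Gjb6). The 95% intervals of the blocked fit cover the spread between these libraries, which may be technical only, and do not bound a genotype effect among mice. They were -0.21 to 0.16 for Slc1a2, -0.14 to 0.25 for Slc1a3, -0.004 to 0.49 for Glul, -0.36 to 0.13 for Gja1, -0.26 to 0.38 for Gjb6, -0.27 to 0.32 for Slc6a11, -0.33 to 0.29 for Aqp4 and -0.82 to 0.33 for Kcnj10. Without the block the narrowest interval, that of Aqp4, was -0.69 to 0.64, and that of Slc1a2 was -1.37 to 1.36. Only 1 residual degree of freedom is left by the block.

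**Figure D4:**
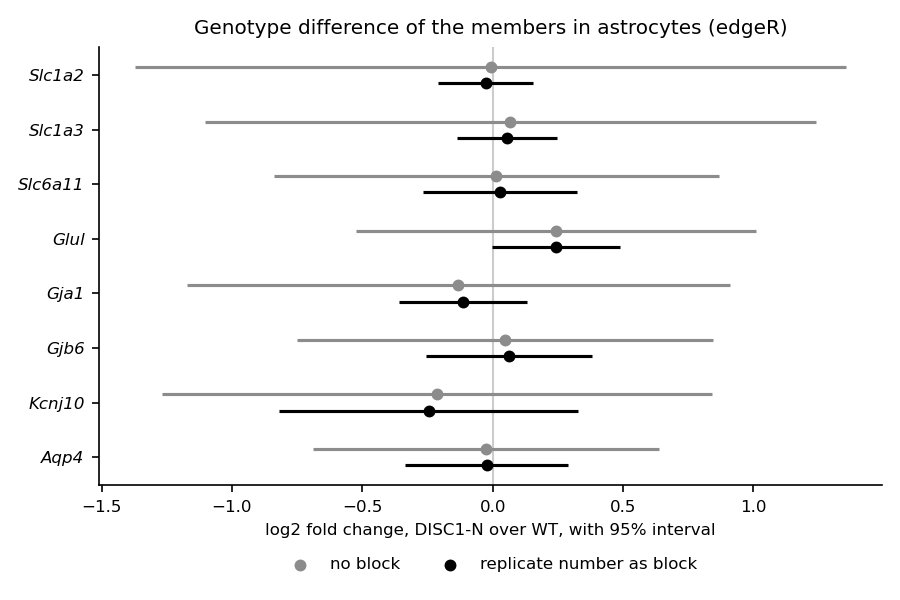
Log2 fold change of DISC1-N over WT in astrocytes with its 95% interval (x axis) for each member (y axis), by edgeR without a block (grey) or with the replicate number blocked (black). All intervals include 0, and that of Glul with the block reaches from -0.004 to 0.49.

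Across all genes 0% of 12013 were called in astrocytes by edgeR without the block (60 had an unadjusted p under 0.05) and 0% with it (608), and DESeq2 and limma-voom called 0 (7 and 62 at an unadjusted p under 0.05). The median log2 fold change of the 8 members was 0.002, against -0.002 for all genes. Of the 8 members 4 were positive and 4 negative. Tested against the genotype difference in each other class, 0 of 40 member terms were called (edgeR with the library as a block; 0 had an unadjusted p under 0.05, lowest 0.147). With the replicate number as a block within each class, a fit added after the data were seen, 0 of 40 were called and 5 had an unadjusted p under 0.05. The lowest was that of Slc1a3 in excitatory neurons, whose log2 fold change minus that in astrocytes was -0.53 ± 0.17 (SE, unadjusted p = 0.00365, adjusted p = 0.690), against -0.55 ± 1.25 (adjusted p = 1.00) without that block.

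In the other classes 8, 7, 5, 5 and 3 members were abundant enough to test (excitatory and inhibitory neurons, oligodendrocytes, precursors and microglia). Without the block 0 passed, as did 0% of genes in each class, and with it 1 passed, Slc1a3 in excitatory neurons; the block called 0.277% of genes in inhibitory neurons, 0.117% in oligodendrocytes and 0% in microglia. Slc1a3 had 60.8 and 5.63 CPM in DISC1-N and 76.0 and 9.41 CPM in WT, and was lower in DISC1-N within each replicate number (ratio 0.8, 0.749 to 0.854, and 0.598, 0.453 to 0.786). With the block its log2 fold change was -0.44 ± 0.10 (adjusted p = 0.0244, edgeR), among 0.555% of 17853 genes called and 0.23% called lower, and without the block it was -0.39 ± 1.19 (adjusted p = 1.00), with 0% called. The level was far higher in replicate 1 of both genotypes, and without the block the direction turned without WT replicate 1 (1.69) or DISC1-N replicate 2 (0.46). In excitatory nuclei with no astrocyte marker UMI the levels were 7.61 and 2.27 CPM in DISC1-N and 15.9 and 7.80 CPM in WT, from 6 to 34 UMIs, and the blocked log2 fold change was -1.31 ± 0.38 (adjusted p = 0.376).

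**Figure D5:**
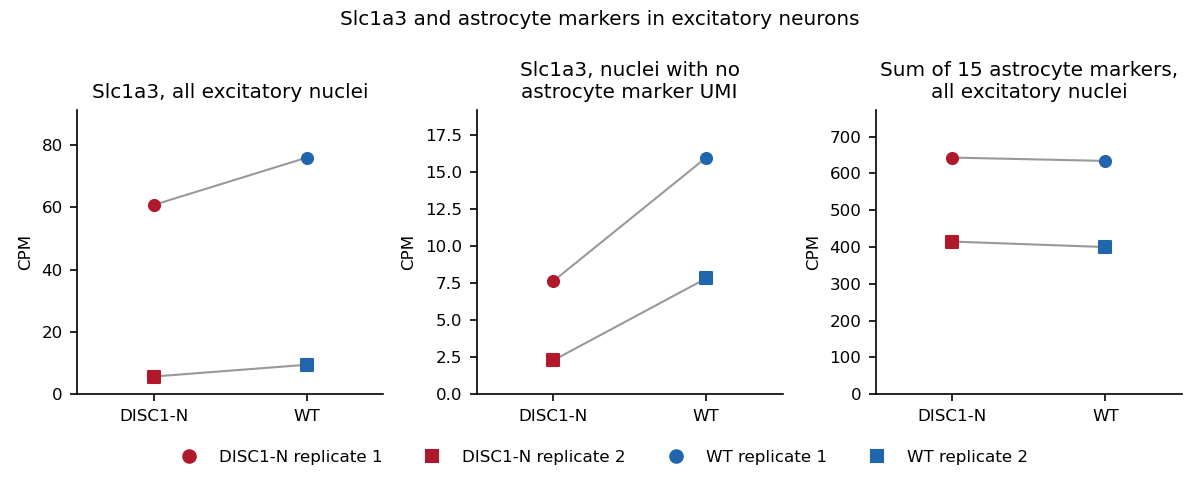
Slc1a3 in all excitatory nuclei (left), Slc1a3 in excitatory nuclei with no astrocyte marker UMI (middle) and the sum of the 15 astrocyte markers in all excitatory nuclei (right), each in CPM on the y axis, with DISC1-N in red on the left and WT in blue on the right, circles for replicate 1 and squares for replicate 2. Slc1a3 is lower in DISC1-N within both numbers (60.8 against 76.0 and 5.63 against 9.41 CPM). The marker sum is 643 against 634 and 415 against 400 CPM. It is carried mostly by Gpc5 and does not show how the less abundant markers moved.

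Slc1a3 stood in these neurons at 0.177% to 3.34% of its astrocyte level, at or below the marker sum, and the share of free astrocyte RNA in the difference was not tested. The marker sum was 643 and 415 CPM in DISC1-N and 634 and 400 CPM in WT, and 3 of its 15 genes carried most of it, Gpc5 (mean 305 CPM), Prex2 (90.1 CPM) and Bmpr1b (44.4 CPM). By library, Gpc5 ranged from 225 to 381 CPM and Prex2 from 84.0 to 96.3 CPM. Etnppl (0.438 to 5.29 CPM), Fgfr3 (0.688 to 7.32 CPM), Acsbg1 (0.750 to 7.31 CPM) and Tril (0.313 to 3.18 CPM) had the widest relative ranges of the 15. The sum does not show how such markers moved with genotype. Slc1a2, Gja1, Aqp4 and Kcnj10 were also lower in excitatory neurons of DISC1-N within both numbers. The share of all genes on one side in both numbers was not computed for this class, so these sides only describe the members. For Slc1a2 the ratio was 0.930 (0.900 to 0.961) in replicate 1 and 0.875 (0.827 to 0.926) in replicate 2. For Gja1 it was 0.808 and 0.285 (223 and 10 UMIs in DISC1-N, 308 and 32 in WT), with a blocked log2 fold change of -0.57 ± 0.21 that did not pass (adjusted p = 0.369). For Aqp4 it was 0.890 and 0.497 (114 and 6 UMIs in DISC1-N, 143 and 11 in WT). For Kcnj10 it was 0.939 and 0.910 (53 and 8 UMIs in DISC1-N, 63 and 8 in WT). Counting intervals were 0.690 to 1.15 and 0.151 to 1.46 for Aqp4. Those of Kcnj10 were 0.639 to 1.38 and 0.298 to 2.78. The remaining 3 took opposite sides in the 2 numbers, with ratios of 1.07 and 0.676 for Glul, 1.12 and 0.0650 for Gjb6 (145 and 1 UMIs in DISC1-N, 145 and 14 in WT) and 1.02 and 0.968 for Slc6a11.

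Kcnj10 in oligodendrocyte precursors had 26.9 and 26.5 CPM in DISC1-N and 54.7 and 39.2 CPM in WT, from 13 and 27 UMIs in DISC1-N and 40 and 43 in WT. The test was not passed without the block (log2 fold change -0.77 ± 0.34, unadjusted p = 0.0405, adjusted p = 1.00) or with it (-0.73 ± 0.30, adjusted p = 0.883), when 0% and 0.0496% of 10075 genes were called. Its genotypes did not overlap there, nor did those of 1 other member, Gja1, which was too low to test, against 22.5% of the genes tested in precursors. Such a gap was also seen for Kcnj10 and Slc6a11 in oligodendrocytes (18.2% of genes) and for Slc6a11 and Gjb6 in microglia (21.8%). Of these Kcnj10 alone was tested there, and 0 members had a gap in excitatory (15.6%) and inhibitory neurons (19.8%). The Kcnj10 gap was narrow, between 50.01 CPM in DISC1-N replicate 2 and 50.46 CPM in WT replicate 1. The others rested on few UMIs in replicates 1 and 2. Slc6a11 had 6 and 11 in DISC1-N oligodendrocytes against 7 and 2 in WT. In microglia Slc6a11 had 2 and 2 in DISC1-N against 1 and 0 in WT, and Gjb6 1 and 4 against 5 and 4.

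Related genes of the same pathways showed no called change in DISC1-N astrocytes either. Of 20 genes of amino acid transport and of glutamate, glutamine and GABA metabolism, 16 were tested, 0 rose and 0 fell, and the median log2 fold change was -0.09 against -0.002 for all genes. Slc1a1, a glutamate transporter best known from neurons, had 22.2 and 5.27 CPM in DISC1-N astrocytes and 37.3 and 11.6 CPM in WT astrocytes (blocked log2 fold change -0.88 ± 0.30, adjusted p = 0.907, edgeR), beside the replicate 1 excess of neuronal markers given above. Neuronal markers were also lower in DISC1-N astrocytes within both numbers, with sums of 239 and 90.5 CPM in DISC1-N and 307 and 113 CPM in WT for excitatory markers, and of 115 and 61.1 CPM in DISC1-N and 170 and 97.1 CPM in WT for inhibitory markers, and their part in the levels of this list was not tested. The aminotransferases Got1 (83.6 and 48.8 CPM in DISC1-N, 111 and 59.5 CPM in WT) and Got2 (39.1 and 30.3 CPM in DISC1-N, 52.1 and 40.7 CPM in WT) did not pass either. By class, 10 of the 17 genes of this list that passed the filter were higher in astrocytes than the mean of the log2 levels of the other classes and 5 lower, against 25.6% and 26.1% of all genes. Slc7a11, the cystine and glutamate exchanger, was among the higher ones, at 392 CPM in astrocytes and at most 14.9 CPM in any other class.

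Of 19 genes of junctions and endfoot anchoring 12 were tested by genotype, 0 rose and 0 fell (median 0.03). Aqp9, a channel for water and glycerol, had 38.1 and 24.2 CPM in DISC1-N astrocytes and 24.1 and 17.0 CPM in WT astrocytes. Its genotypes all but touched, at 24.16 CPM in DISC1-N replicate 2 and 24.12 CPM in WT replicate 1. Of all genes tested, 20.2% did not overlap. The blocked log2 fold change of Aqp9 was 0.60 ± 0.23 (adjusted p = 0.907, edgeR). The chloride channel gene Clcn2 had 23.3 and 14.1 CPM in DISC1-N and 16.3 and 11.2 CPM in WT, and Gjb2, connexin 26, had 4.23 and 5.71 CPM in DISC1-N and 3.89 and 8.95 CPM in WT. Of the 14 that passed the filter by class, 9 were higher in astrocytes and 2 lower. Gjc3, connexin 29, was one of the lower ones, at 4.57 CPM in astrocytes against 545 and 575 CPM in oligodendrocytes and their precursors.

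Of 18 ion homeostasis genes all were tested, 0 rose and 0 fell (median -0.05). The potassium channel Kcnk2 had 228 and 240 CPM in DISC1-N astrocytes and 176 and 222 CPM in WT astrocytes, the sodium pump subunit Atp1b1 250 and 103 CPM in DISC1-N and 291 and 145 CPM in WT, and Kcnj16, the usual partner subunit of Kir4.1, 123 and 108 CPM in DISC1-N and 80.9 and 122 CPM in WT. By class, 11 of the 18 were higher in astrocytes and 4 lower. Kcnj16 was seen in oligodendrocyte precursors (133 CPM) and astrocytes (108 CPM) but at only 1.96 CPM in oligodendrocytes, the class with the highest Kcnj10 level. Of 15 reactive astrocyte genes 6 were abundant enough to test, 0 rose and 0 fell (median 0.18): Gfap had 43.4 and 29.0 CPM in DISC1-N and 34.2 and 20.1 CPM in WT, Id3 190 and 134 CPM in DISC1-N and 164 and 96.2 CPM in WT, and S100b 102 and 81.7 CPM in DISC1-N and 149 and 81.4 CPM in WT.

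The genes most like each member over the 24 sums of class and library were found by Pearson's r of log2(CPM + 1) among 10876 genes, as a description; the points share libraries and depth. For Slc1a2 they were Gm6145, Ntsr2 and Plcd4 (r = 0.97, 0.97 and 0.96), for Gja1 Slco1c1, Sdc4 and Lrrc58 (0.96 each), for Gjb6 Gm14964, Lfng and Mlc1 (0.96, 0.95 and 0.95), and for Aqp4 Asb8, Cyp2d22 and Fgfr3 (0.95, 0.94 and 0.93). Ntsr2 and Fgfr3 are among the markers that defined the astrocytes. Slc6a11 was followed by Gk, Capn2 and Slc7a2 (0.95, 0.94 and 0.94).

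Members with RNA in several classes had neighbours of that kind. Slc1a3 was closest to Cpt1a, Eci2 and Cmtm3 (0.96, 0.96 and 0.95), of which Cpt1a, the mitochondrial fatty acid importer, averaged 38.6 CPM in astrocytes and 15.5 CPM in microglia. Glul was closest to the metallothioneins Mt1 and Mt3 (0.98 and 0.97) and to Washc2 (0.96); Mt1 averaged 830 CPM in astrocytes, 265 CPM in microglia and 260 CPM in oligodendrocytes. Kcnj10 was closest to Psat1, an enzyme of serine synthesis (0.97), then to Ptn and Scd2 (0.93 and 0.92), and Psat1 averaged 90 CPM in oligodendrocytes, 40.6 CPM in precursors and 38.8 CPM in astrocytes. Among the members themselves r was highest for Gja1 and Gjb6 (0.95) and lowest for Gjb6 and Kcnj10 (0.22).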

How the data were processed

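Single-nucleus libraries of the BLA were analysed as deposited: matrices of raw UMI counts per gene and barcode. The authors aligned to mm10 using Cell Ranger, per the submitters' processing notes, which name 7.0.0; per the file headers, replicate 1 of each genotype used 7.0.0 and replicate 2 used 6.0.2. Intron counting and barcode calling were not given in the sources used here.

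Nuclei needed 500 genes or more and 5% mitochondrial UMIs or less, and the highest Scrublet scores were removed at 0.8% per 1000 nuclei (scanpy 1.11.5, Python 3.11.15). A glial or vascular class needed 3 distinct markers (2 for differentiating oligodendrocytes) and 4 marker UMIs per 1000 UMIs, a lead of 2 times over the next class, and no more than 2 markers of a neuronal class; a neuronal class needed 2 markers, the same lead and no glial class. The markers exclude the members; the scoring rule was set after the data were seen. Leiden clusters (leidenalg 0.10.2), made without the members, were an alternative.

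Counts were summed by class and library. Where every library of a class held 20 nuclei, sums were fitted over all genes in edgeR 4.0.16 (quasi-likelihood, TMM, filterByExpr minimum count 10, R 4.3.3), and an adjusted p (Benjamini-Hochberg) below 0.05 was a call. The genotype fit has no block; the fit blocked on the number is given beside it, since the number marks the Cell Ranger version and is balanced over genotype. Deviations of same-numbered astrocyte libraries correlated (Pearson's r = 0.66 over 7440 genes), with 2 pairs. DESeq2 1.42.0 and limma 3.58.1 (voom) were alternatives. Ratios within a number carry exact binomial intervals, for counting error only. Scripts were tested on simulated data. Members and lists were chosen with earlier results of these data known. Named genes are the members, per list the 3 of lowest p in astrocytes, per member the 3 genes of highest correlation with at least 20 CPM in a class, and genes named for class levels or splits after their values were seen. Of 32285 gene IDs, 32158 matched GENCODE vM21 (1-based coordinates). Strand of counting was not given, and Slc1a2 (Gm13872), Slc6a11 (Gm8132), Glul (Mir8114, Teddm2) and Aqp4 (AC133525.2) overlap other gene models too.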

Additional observations from a re-analysis of the deposited data

How the results depend on the processing

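Genotype fold changes of the members in astrocytes were recomputed in 144 alternative values; 123 kept their sign, 21 reversed, and 0 had an adjusted p under 0.05. Glul kept its sign in all 18 alternatives tried for it. Log2 values that reversed were 0.029 for Slc1a2 with a stricter gate and 0.026 with that gate and the block, -0.0030 for Slc6a11 with no doublet removal, -0.080 for Gjb6 and 0.094 for Aqp4 after thinning, and for Aqp4 0.014 with under 1% mitochondrial UMIs and 0.0020 with the stricter gate and the block. Leaving out 1 library at a time gave -0.41 to 0.31 for Slc1a2, -0.28 to 0.35 for Slc1a3, -0.33 to 0.48 for Slc6a11, 0.18 to 0.31 for Glul, -0.58 to 0.44 for Gja1, -0.25 to 0.43 for Gjb6, -1.09 to 0.28 for Kcnj10 and -0.18 to 0.11 for Aqp4; in excitatory neurons it gave -2.81 to 1.69 for Slc1a3 and -3.25 to 0.95 for Gja1. An arm left with 1 library is assumed to vary like the other.

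Genes called by genotype moved from 0 without a block to 99 in excitatory neurons, 41 in inhibitory neurons, 12 in oligodendrocytes and 5 in precursors with the replicate block; with the stricter gate and the block to 31, 51, 7 and 4, and with clusters and the block to 53, 131, 6 and 6, and 16 in astrocytes. The last 2 settings were chosen after the data were seen. Without a filter on low counts 1 gene was called in astrocytes. Leave-one-out counts were 0 to 18 in astrocytes (18 without DISC1-N replicate 1), 0 to 5 in excitatory neurons (5 without DISC1-N replicate 2) and 1 to 11 in inhibitory neurons (11 without DISC1-N replicate 1). The cause of these shifts was not tested. All 8 members stayed higher in astrocytes than the mean of the log2 levels of the other classes, and 7 than each class, in the 8 alternatives run; Slc1a3 in excitatory neurons was also called with the block under the stricter gate (-0.59) and clusters (-0.45). Depth limits Kcnj10 most, with 161 UMIs in all astrocytes.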
